A study of Mus musculus with 2 samples.

Results

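Potassium channel genes were taken as every gene of the deposited matrix whose symbol starts with Kcn, together with Abcc8 and Abcc9, which gave 101 of 32285 genes. Their transcripts were counted in 11 classes of cells that came out of 1 preparation of mouse spleen. The series concerns Kir6.1, the pore subunit that Kcnj8 encodes for the ATP-sensitive potassium (KATP) channel, in natural killer (NK) cell development. Both samples in the labels are wild-type mouse NK cells from spleen, isolated by negative selection, and no mutant or treated group is among them. The droplet-based single-cell matrix of 1 of them was used, and the other is not analysed here. The sources used here give neither age nor sex of the mice. The selection holds back T, B, dendritic, granulocytic, macrophage and erythroid cells, so the other classes are the cells that escaped it and need not represent their type in the spleen.

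Potassium channels let potassium ions leave or enter the cell along their gradient and so set the membrane voltage, which in lymphocytes governs the driving force for calcium entry. The families differ in what opens them: voltage for the Kv genes (such as Kcna, Kcnd, Kcnh, Kcnq), calcium or sodium for Kcnn, Kcnma and Kcnt, and falling ATP for the KATP channel among the inward rectifiers (Kcnj). The 2-pore-domain genes (Kcnk) encode leak channels. Kcnab, Kcne, Kcnip and Kcnmb encode auxiliary subunits, and Kcng and Kcns encode subunits that modify other Kv channels and form no channel alone. In T cells the best studied pair is Kcna3 and Kcnn4, and in red cells Kcnn4 is known as the Gardos channel.

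The analysed set held 11696 barcodes that carried 1 of 3 lipid tags, with 3590, 4213 and 3893 cells in tags 1, 2 and 3. Their gene counts of unique molecular identifiers (UMIs) summed to between 18485480 and 23091461 per tag. Tags were treated as replicates of 1 library, since the labels do not tie a tag to a mouse, so p-values measure the spread between tags, which may be technical. The classes were gated on marker genes. NK-like cells made up 9042 of the cells, and the other gates took 629 B cell-like, 277 ILC1-like, 189 dendritic-like, 125 T cell-like, 123 erythroid-like, 89 stromal-like, 82 monocyte-like, 72 progenitor-like, 64 platelet-like and 23 plasma-like cells. About 15.3% of the single-tag barcodes are expected to be doublets of cells with the same tag. Median depth ran from 1957 UMIs in platelet-like to 34093 in erythroid-like cells, against 3977 in NK-like cells. Free RNA or doublets can carry NK transcripts into other classes: Gzma, a granule protease of NK cells outside the gates, stood at 0.741 to 5.59% of its NK-like level in the 10 other classes. Other NK transcripts stood higher: the chemokine gene Ccl5 had 47.8% of its NK-like level in ILC1-like, 16.0% in dendritic-like and 14.4% in platelet-like cells, and the granule gene Nkg7 had 37.4% in ILC1-like and 18.2% in T cell-like cells. Their part in the levels was not tested.

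Each level is the share of a gene in all gene UMIs of the class, on the usual CPM scale, with exact Poisson 95% intervals that cover counting error only. These are counts of transcript 3′ ends and not values per length, so each gene is compared between classes and no order is drawn between genes. Of the 101 genes, 66 had at least 3 UMIs in some class, 44 had at least 10, and 13 had 0 UMIs in every class. In NK-like cells, 53 genes reached 3 UMIs, where 3 UMIs correspond to 0.0697 CPM. In the other classes between 4 (platelet-like) and 26 (B cell-like) genes did, but there 3 UMIs correspond to between 0.792 CPM (erythroid-like) and 11.5 CPM (platelet-like). A gene missing from a small class was therefore often not detectable at its depth. At 10 CPM or more stood 10 genes in stromal-like, 9 in ILC1-like, 7 in T cell-like, 5 in B cell-like and 4 in dendritic-like cells, and 8 in NK-like cells.

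**Figure D1:**
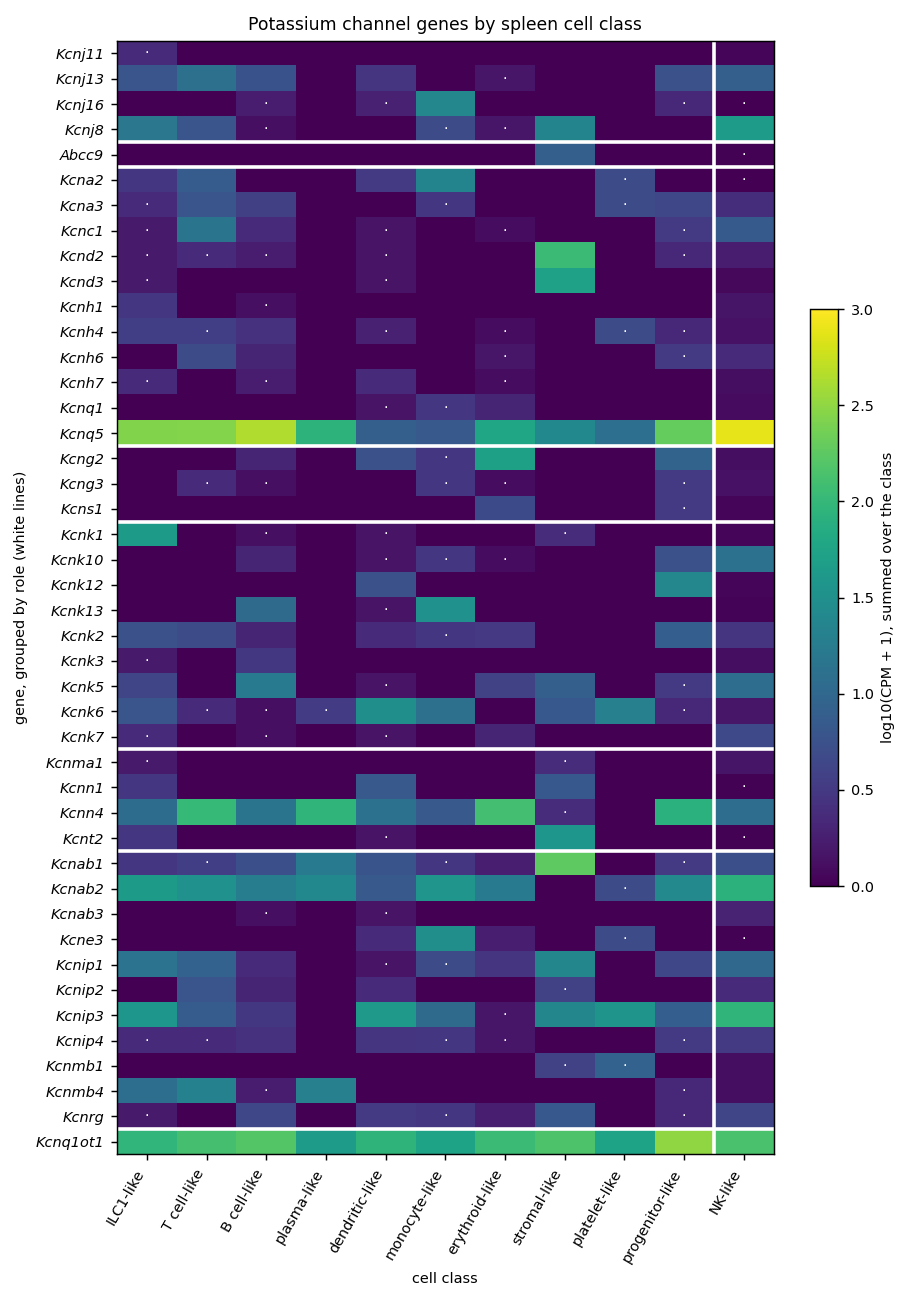
Levels of 44 potassium channel genes in the 11 cell classes, as log10(CPM + 1) of the summed class, with genes grouped by role between the white lines and NK-like cells at the right. A dot marks a value that rests on 1 or 2 UMIs. Kcnq5, Kcnq1ot1, Kcnip3 and Kcnab2 were bright across several classes, while Kcnk1 (ILC1-like), Kcng2 (erythroid-like) and Kcnd2, Kcnd3 and Kcnt2 (stromal-like) each stood out in 1 class.

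In the fit of 7 classes against NK-like cells, edgeR's expression filter left 9 of the 101 members among 9305 genes tested: Kcnab2, Kcng2, Kcnip3, Kcnj8, Kcnk1, Kcnk6, Kcnn4, Kcnq1ot1 and Kcnq5. A member that passes this filter through the class where it is high had to differ there, so its call is read with its levels. Kcnk1 (ILC1-like), Kcng2 (erythroid-like) and Kcnk6 (dendritic-like) are such members, and no p-value is given for them in those classes. Kcnj8 passed through NK-like cells, so its calls as lower are read in the same way, without p-values. Of the 9, erythroid-like cells had 2 higher (Kcng2, Kcnn4) and 4 lower, where 34.3% of all genes tested were higher and 39.2% lower. Dendritic-like cells had 2 higher (Kcng2, Kcnk6) and 4 lower, against 26.1% and 25% of all genes. Progenitor-like cells had 3 higher (Kcng2, Kcnn4, Kcnq1ot1) and 4 lower, against 23.1% and 23.5%. In B cell-like cells 0 were higher and 3 lower, against 18.1% and 20.3% of all genes. Monocyte-like cells had 1 higher (Kcnk6) and 5 lower, against 18.3% and 17.8%. ILC1-like cells had 2 higher (Kcnk1, Kcnk6) and 4 lower, against 10.4% and 9.43%, and T cell-like cells 1 higher (Kcnn4) and 4 lower, against 8.52% and 10.5%. The lower genes were Kcnj8, Kcnip3 and Kcnab2 in each of the 7 classes and Kcnq5 in 6 of them, and Kcnq1ot1 was the fifth in monocyte-like cells. For B cell-like cells, DESeq2 also called 0 members higher, and 5 of the 9 had an unadjusted p under 0.05 in either direction. Genes at 0 UMIs were set to a bound of 3 UMIs, or left out where the NK-like level was at or under that bound. So read, the median log2 fold of 7 to 9 tested members lay between -1.90 (erythroid-like) and -0.18 (B cell-like). Over all 9 as fitted these ends were the same, but the progenitor-like median was -1.32, against -0.28 with the bound. Medians of all genes tested, taken as fitted, lay between -0.21 and -0.02.

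An expression filter at 3 counts, chosen after the data were seen, let 21 members into the class fit among 12341 genes. Of the 21, ILC1-like cells had 4 higher and 7 lower, where 9.1% of all genes were higher and 7.9% lower. T cell-like cells had 3 higher and 6 lower, against 6.56% and 9.08%, and B cell-like cells 1 and 6, against 14.9% and 18.1%. Dendritic-like cells had 5 and 9, against 23% and 22.3%, and monocyte-like cells 4 and 6, against 14.2% and 15.8%. Erythroid-like cells had 3 and 10, against 30.7% and 35%, and progenitor-like cells 4 and 5, against 19.7% and 20.4%. Members with few UMIs in NK-like cells enter this fit through the classes where they are high, so no p-value from it is given for Kcna2, Kcne3, Kcnk12, Kcnk13 or Kcnmb4, nor for Kcnk10, which enters through NK-like cells.

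Among the inward rectifiers, Kcnj8 was higher in NK-like cells than in each of the 7 classes tested. In GRCm38 the gene spans chr6:142564837-142571614 (minus strand), and 0 other annotated genes overlap it. Its RefSeq promoter window, 250 bases before to 50 after the start on GRCm38.p6 (chr6:142571565-142571864, minus strand), is shown because Kcnj8 is the gene of the series and was lower in each tested class than in NK-like cells. The capitals mark the 1 match to the T-box core AGGTGT, read on either strand, the motif of the NK factors T-bet and Eomes; 13.7% of 32851 promoter windows hold such a match.
Kcnj8: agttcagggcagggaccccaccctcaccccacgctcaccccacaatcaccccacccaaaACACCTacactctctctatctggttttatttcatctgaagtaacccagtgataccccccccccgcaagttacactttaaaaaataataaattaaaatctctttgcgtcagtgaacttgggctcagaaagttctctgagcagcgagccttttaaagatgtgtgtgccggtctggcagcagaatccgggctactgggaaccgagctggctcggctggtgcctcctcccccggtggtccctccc
In ILC1-like cells Kcnj8 stood at 14.2, 16.6 and 12.2 CPM in tags 1, 2 and 3, against 48.1, 39.5 and 46.9 CPM in NK-like cells. The tags did not overlap, and the difference was a log2 fold of -1.65 ± 0.31 (SE). No p-value is given for Kcnj8 in the class comparisons, as it entered that fit through NK-like cells. The ILC1-like gate requires 0 UMIs of Eomes and Itga2, and the other 7 NK markers still summed to 2620 CPM in its cells. In NK-like cells all 9 NK markers, Eomes and Itga2 included, summed to 8614 CPM.

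In B cell-like cells Kcnj8 had 1 UMI (131-fold lower than in NK-like cells, counting interval 23.4 to 5164). Erythroid-like cells held 2 UMIs (84.0-fold lower, 23.2 to 694) and monocyte-like cells 2 (11.2-fold lower, 3.10 to 92.7). Dendritic-like cells had 0 UMIs, at least 32.9-fold lower than NK-like cells with a floor of 3 UMIs over the class. Progenitor-like cells also had 0, at least 13.1-fold lower. T cell-like cells stood at 9.15, 0 and 4.56 CPM (log2 fold -2.88 ± 0.54), on 4 UMIs in all. P-values given below are from edgeR's quasi-likelihood test with Benjamini-Hochberg adjustment, unless another test is named. After thinning each cell to 2500 UMIs, a Kcnj8 UMI was seen in 10 of 263 ILC1-like cells (3.80%), 0 of 555 B cell-like cells, which allows a share of up to 0.541%, and 934 of 7886 NK-like cells (11.8%). Without thinning the shares were 5.42% of ILC1-like, 0.159% of B cell-like and 16.0% of NK-like cells, at median depths of 4997, 3674 and 3977 UMIs.

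The other KATP subunits were scarce in the whole preparation. Kcnj11, which encodes the alternative pore subunit Kir6.2, had 2 UMIs in ILC1-like cells, 4 in NK-like cells and 0 in the other 9 classes. Abcc8, which encodes the regulatory subunit SUR1, had 1 UMI over the 11 classes. Abcc9, the gene of the other regulatory subunit, SUR2, had 5 UMIs in 3 stromal-like cells (7.13 CPM, 2.32 to 16.6), 2 UMIs in NK-like cells (0.0464 CPM, 0.00562 to 0.168) and 0 elsewhere. Stromal-like cells had the next highest Kcnj8 level, at 0, 4.07 and 72.4 CPM in tags 1, 2 and 3 and 21.4 CPM in all (12.0 to 35.3), against 44.3 CPM (42.4 to 46.4) in NK-like cells. Its interval overlaps that of ILC1-like cells (8.96 to 21.7). That stromal level rests on 15 UMIs in 4 of 89 cells, with 10 UMIs in 1 cell, and it was 8.07 CPM without the deepest 5% of each class's cells. Kcnj8 and Abcc9 were together in 0 of these cells. The pericyte marker Pdgfrb was found in 2 of the 4 cells with Kcnj8.

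Kcnj13, which encodes Kir7.1, stood at 11.8 CPM (5.40 to 22.4) in T cell-like, 5.20 (2.25 to 10.2) in ILC1-like, 4.75 (2.60 to 7.97) in B cell-like, 1.80 (0.490 to 4.60) in dendritic-like and 0.528 (0.0640 to 1.91) in erythroid-like cells, against 7.15 CPM (6.38 to 8.0) in NK-like cells. Under the filter at 3 counts it was lower in erythroid-like (log2 fold -3.29 ± 0.78, adjusted p = 0.00036) and dendritic-like cells (-1.65 ± 0.69, adjusted p = 0.047) than in NK-like cells. The erythroid-like level rests on 2 UMIs and was 13.5-fold lower (counting interval 3.72 to 112). Kcnj16, which encodes the partner subunit Kir5.1, had 12 UMIs in monocyte-like cells, where it stood at 23.7 CPM (12.3 to 41.4), against 1 UMI in NK-like cells. All 12 came from 3 cells of tag 3, and 8 of them from 1 cell, so the level rests on that tag. The remaining inward rectifier genes reached at most 7 UMIs in any class.

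**Figure D2:**
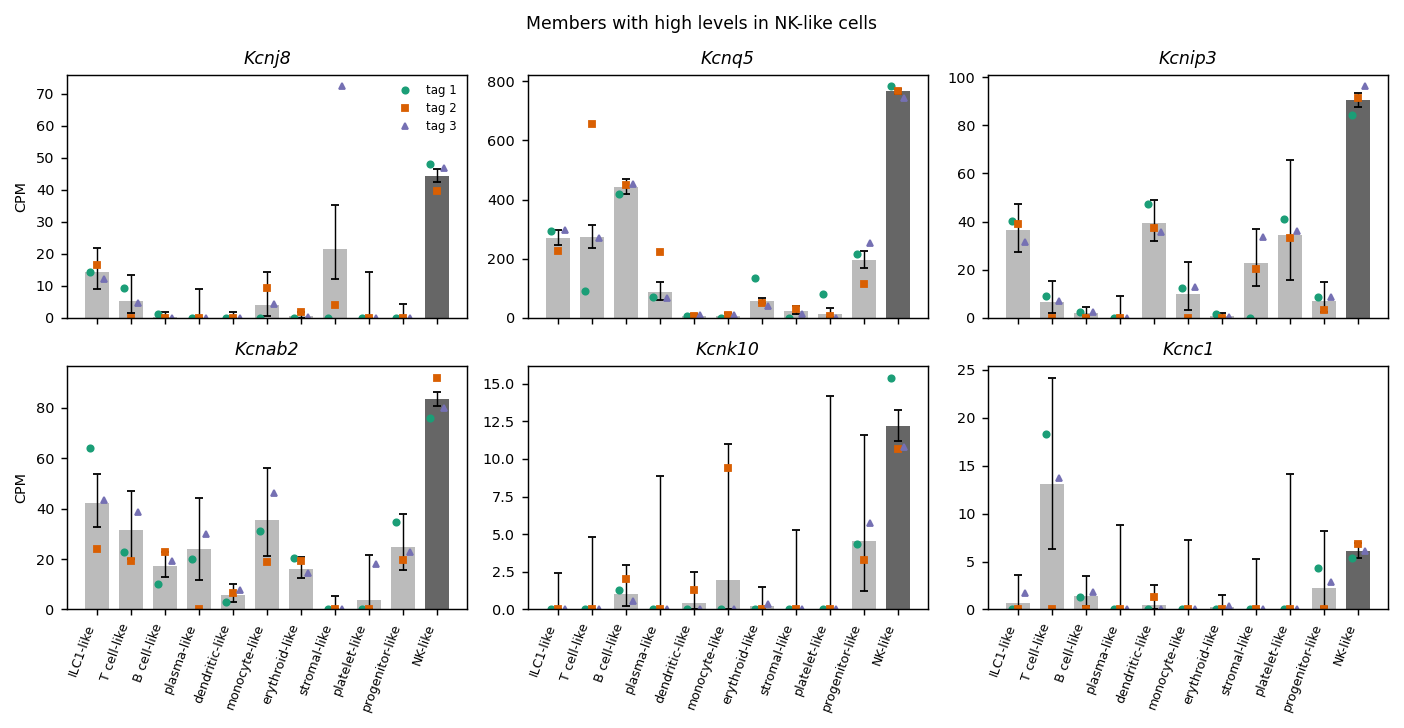
CPM of 6 potassium channel genes by class, with NK-like cells at the right in dark grey; bars show the class sum, error bars its exact Poisson 95% interval, and points the 3 tags. Kcnj8, Kcnip3 and Kcnab2 had their highest summed level in NK-like cells, at 44.3, 90.4 and 83.3 CPM, while Kcnq5 was also present in B cell-like cells at 444 CPM.

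Among the voltage-gated pores, Kcnq5, which encodes the M-current subunit Kv7.5, was carried by lymphoid and progenitor classes and was close to absent from myeloid ones. It stood at 419, 450 and 453 CPM in B cell-like cells, 293, 225 and 298 in ILC1-like cells, 217, 115 and 252 in progenitor-like cells and 91.5, 657 and 271 in T cell-like cells, against 784, 768 and 743 CPM in NK-like cells. Every tag of these 4 classes was below the NK-like tags, but the T cell-like tags spread over a wide range. Kcnq5 was lower in ILC1-like (log2 fold -1.52 ± 0.29; adjusted p = 0.00015), progenitor-like (-1.95 ± 0.32; adjusted p = 5.7e-06) and T cell-like cells (-1.19 ± 0.32; adjusted p = 0.0061), while the B cell-like difference missed the threshold (-0.60 ± 0.27; adjusted p = 0.078). The T cell-like call was lost with DESeq2 (adjusted p = 0.2) and without tag 1 (adjusted p = 0.061), in a range over its 11 alternatives from 1.5e-12 to 0.2. DESeq2's size factors shift the median of all genes by 0.14 in that comparison, and by 0.12, 0.19 and 0.14 in the erythroid-like, monocyte-like and progenitor-like ones, relative to TMM.

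Dendritic-like cells held Kcnq5 at 7.60, 6.42 and 7.61 CPM, and the log2 fold against NK-like cells was -6.36 ± 0.46 (adjusted p = 1.5e-13). In monocyte-like cells 3 UMIs were counted, 129-fold lower than in NK-like cells (counting interval 44.2 to 626; adjusted p = 5.7e-10). Erythroid-like cells stood at 134, 48.9 and 39.6 CPM, with a log2 fold of -3.12 ± 0.32 (adjusted p = 2.8e-10). Thinned to 2500 UMIs, 2.12% of dendritic-like, 45.4% of B cell-like and 56.2% of NK-like cells had a Kcnq5 UMI; unthinned the shares were 8.47%, 55.2% and 64.3%, at median depths of 9950, 3674 and 3977 UMIs. Kcnq5 spans 563.5 kb on chromosome 1 (chr1:21398403-21961942), where GENCODE places 3 other genes on its strand. The sources used here do not say whether intron reads were counted, so reads of those genes or of unspliced RNA cannot be told apart from mature Kcnq5 transcript.

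Kcnc1, which encodes the fast Kv3.1 channel, was seen mainly in T cell-like and NK-like cells. It had 13.1 CPM (6.29 to 24.1; 10 UMIs in 5 cells) in T cell-like cells and 1.36 CPM (0.370 to 3.48) in B cell-like cells, against 6.13 CPM (5.41 to 6.92) in NK-like cells. Kcna3, which encodes the T cell channel Kv1.3, was at low level throughout, with 5.25 CPM (1.43 to 13.4) in T cell-like cells and 2.72 CPM (1.17 to 5.35) in B cell-like cells, against 1.49 CPM (1.14 to 1.90) in NK-like cells. Its intervals overlap between T cell-like and NK-like cells. Kcna2, which encodes Kv1.2, had 11 UMIs in 5 monocyte-like cells, at 0, 18.8 and 37.8 CPM in tags 1, 2 and 3, against 1 UMI in NK-like cells (ratio 936, counting interval 136 to 40309). It also had 6.56 CPM (2.13 to 15.3) in T cell-like, 2.25 CPM (0.730 to 5.24) in dendritic-like and 1.95 CPM (0.402 to 5.70) in ILC1-like cells, on 5, 5 and 3 UMIs. Kcnh1, Kcnh4, Kcnh6, Kcnh7 and Kcnq1 were scarce, and their levels outside NK-like cells rest on at most 5 UMIs in each class. Kcnh4 stood at 2.60 CPM (0.709 to 6.66) in ILC1-like and 1.70 CPM (0.551 to 3.96) in B cell-like cells, against 0.418 CPM (0.248 to 0.661) in NK-like cells. Kcnh6 had 3.94 CPM (0.812 to 11.5) in T cell-like cells, against 1.25 CPM (0.942 to 1.64) in NK-like cells.

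The modifier subunit gene Kcng2, whose product forms no channel alone, stood out in erythroid-like cells. It had 64.0, 52.4 and 44.7 CPM there in tags 1, 2 and 3, from 186 UMIs in 77 of 123 cells, against 0.222, 0.409 and 0.161 CPM in NK-like cells. The tags of the classes lay far apart, and the log2 fold was 7.79 ± 0.54. Kcng2 entered the fit through erythroid-like cells, so no p-value is given for them. Progenitor-like cells, whose list of erythroid markers summed to 596 CPM, against 6843 CPM in erythroid-like and 235 CPM in NK-like cells, had Kcng2 at 4.35, 6.58 and 11.4 CPM (log2 fold against NK-like cells 4.64 ± 1.08, adjusted p = 0.00083). That call did not hold without tag 3 (adjusted p = 0.053, in a range from 2.6e-06 to 0.053 over 11 alternatives). The part of erythroid cells or RNA in the progenitor-like value was not tested.

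A Kcng2 call in dendritic-like cells (log2 fold 4.11 ± 0.91; adjusted p = 0.00037) rests on tag 2, which held all 10 UMIs, 8 of them in 1 cell. Without tag 2 it turned to -2.08 (adjusted p = 0.65), and without the deepest cells of each class it was 2.43 (adjusted p = 0.13), in a range over 10 alternatives from 3.2e-07 to 0.65. Kcns1, another modifier subunit gene, had 14 UMIs in 8 erythroid-like cells (3.70 CPM, 2.02 to 6.20), against 4 UMIs in NK-like cells. Kcng3, also a modifier gene, had under 3 UMIs in every other class, against 0.418 CPM (0.248 to 0.661) in NK-like cells, and NK-like cells did not pass as different from the other classes together (log2 fold -0.28 ± 0.87, adjusted p = 0.8 under the filter at 3 counts).

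Different 2-pore-domain genes were high in different classes. Kcnk1, which encodes TWIK-1, had 49.6, 51.7 and 27.9 CPM in ILC1-like cells, against 0.296, 0 and 0 CPM in NK-like cells. The 65 ILC1-like UMIs came from 37 of 277 cells with at most 4 in a cell, and the log2 fold was 8.20 ± 0.74. Kcnk1 entered the fit through ILC1-like cells, so no p-value is given. In the other 9 classes the gene stayed under 3 UMIs. Thinned, 8.37% of ILC1-like and 0.0254% of NK-like cells had a Kcnk1 UMI, against 13.4% and 0.0221% unthinned. The ILC1-like class was led by Il7r, Tmem176a and Tmem176b, and its 10 leading genes also include Cd74, H2-Aa and H2-Eb1 of the class II pathway. Its dendritic markers summed to 176 CPM, against 151 CPM in NK-like cells. Markers of ILC2 and ILC3 cells summed to 183 CPM in ILC1-like cells, against 1.74 CPM in NK-like cells; their part in the Kcnk1 value was not tested.

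The promoter windows of Kcnk1 (RefSeq, GRCm38.p6, chr8:125994852-125995151, plus strand) and Kcnk13 (chr12:99964249-99964548, plus strand) are shown because these 2 members were each counted almost wholly outside NK-like cells. The capitals mark matches to the PU.1 core GAGGAA on either strand, the motif of a factor of myeloid and B cells, which 28.3% of all promoter windows hold.
Kcnk1: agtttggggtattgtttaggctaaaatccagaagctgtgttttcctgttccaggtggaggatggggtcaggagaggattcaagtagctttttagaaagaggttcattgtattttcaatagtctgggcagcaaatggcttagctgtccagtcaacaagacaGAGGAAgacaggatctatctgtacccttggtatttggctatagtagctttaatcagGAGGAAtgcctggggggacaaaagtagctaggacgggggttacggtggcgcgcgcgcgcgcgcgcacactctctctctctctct
Kcnk13: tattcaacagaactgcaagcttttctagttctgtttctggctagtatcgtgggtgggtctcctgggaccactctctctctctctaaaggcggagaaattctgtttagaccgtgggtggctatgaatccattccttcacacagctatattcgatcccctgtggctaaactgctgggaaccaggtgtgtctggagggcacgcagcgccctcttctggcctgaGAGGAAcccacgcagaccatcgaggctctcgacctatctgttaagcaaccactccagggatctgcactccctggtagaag
The Kcnk1 window holds 2 matches and the Kcnk13 window 1. The Kcnk13 window also holds 1 match to the T-box core, which is not in capitals. A match is a run of letters and not a measured site.

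Kcnk6, which encodes TWIK-2, a channel through which macrophages lose potassium, was highest in dendritic-like cells. It had 38.0, 34.7 and 20.3 CPM there, from 68 UMIs in 49 cells, against 0.444, 0.642 and 0.403 CPM in NK-like cells (log2 fold 6.17 ± 0.56). Kcnk6 entered the fit through dendritic-like cells, so no p-value is given for them. Monocyte-like cells had 0, 18.8 and 16.8 CPM (6 UMIs; log2 fold 4.69 ± 1.05, adjusted p = 0.00067), a call that was lost without tag 3 (adjusted p = 0.13, in a range from 8.3e-10 to 0.13 over 10 alternatives). ILC1-like cells had 2.36, 9.24 and 3.48 CPM (8 UMIs; log2 fold 3.2 ± 0.86, adjusted p = 0.0068). This last call was lost without tag 2 (adjusted p = 0.28) and with all barcodes (adjusted p = 0.066), in a range from 2.7e-05 to 0.28 over 10 alternatives. Platelet-like cells, in which no test was run, held 5 UMIs in 3 cells of tag 2 (19.2 CPM, 6.23 to 44.8). Monocyte markers summed to 1417 CPM in platelet-like cells, against 72.4 CPM in NK-like cells. Dendritic markers summed to 753 CPM in platelet-like, 563 CPM in monocyte-like and 2020.3 CPM in dendritic-like cells, against 151 CPM in NK-like cells. The part of either list in the Kcnk6 values was not tested.

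Kcnk13, which encodes THIK-1, the leak channel of microglia, was present in monocyte-like and B cell-like cells. It stood at 12.4, 0 and 58.8 CPM in monocyte-like cells, from 16 UMIs in 5 cells, and at 5.11, 2.05 and 14.3 CPM in B cell-like cells, from 29 UMIs in 21 cells, against 3 UMIs in NK-like cells. Ratios to NK-like cells were 454 in monocyte-like (counting interval 129.97 to 2432) and 141 in B cell-like cells (43.8 to 725). Kcnk12, which encodes the related THIK-2, stood at 39.1, 19.7 and 17.2 CPM in progenitor-like cells and 9.12, 1.28 and 3.81 CPM in dendritic-like cells, against 0.148, 0.0584 and 0.242 CPM in NK-like cells. Both classes lay above NK-like cells in all 3 tags, and the ratios to NK-like cells were 171 in progenitor-like (counting interval 66.6 to 517) and 32.3 in dendritic-like cells (10.6 to 108).

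Kcnk10 and Kcnk5 were the Kcnk genes above 10 CPM in NK-like cells. Kcnk10, which encodes the stretch-sensitive TREK-2, had 0 UMIs in ILC1-like and T cell-like cells, against 15.4, 10.7 and 10.8 CPM in NK-like cells. These classes were at least 6.25-fold and at least 3.10-fold lower than NK-like cells, and B cell-like cells had 3 UMIs (12.0-fold lower, counting interval 4.07 to 58.2). Kcnk5, which encodes the pH-sensitive TASK-2, stood at 16.6, 14.4 and 17.3 CPM in B cell-like cells and 2.36, 1.85 and 5.23 CPM in ILC1-like cells, against 9.69, 11.7 and 10.4 CPM in NK-like cells. B cell-like tags were all above and ILC1-like tags all below the NK-like tags; under the filter at 3 counts the ILC1-like difference passed (log2 fold -1.78 ± 0.61, adjusted p = 0.04) and the B cell-like one did not (0.75 ± 0.36, adjusted p = 0.11). Kcnk7 had 1.06 CPM (0.288 to 2.70) in erythroid-like cells, against 3.65 CPM (3.10 to 4.26) in NK-like cells. Kcnk2, which encodes TREK-1, ran between 1.02 and 6.79 CPM in the 6 other classes with at least 3 UMIs, against 1.93 CPM in NK-like cells. Kcnk3 had 6 UMIs in B cell-like cells (2.04 CPM, 0.747 to 4.43), against 0.279 CPM (0.144 to 0.487) in NK-like cells.

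**Figure D3:**
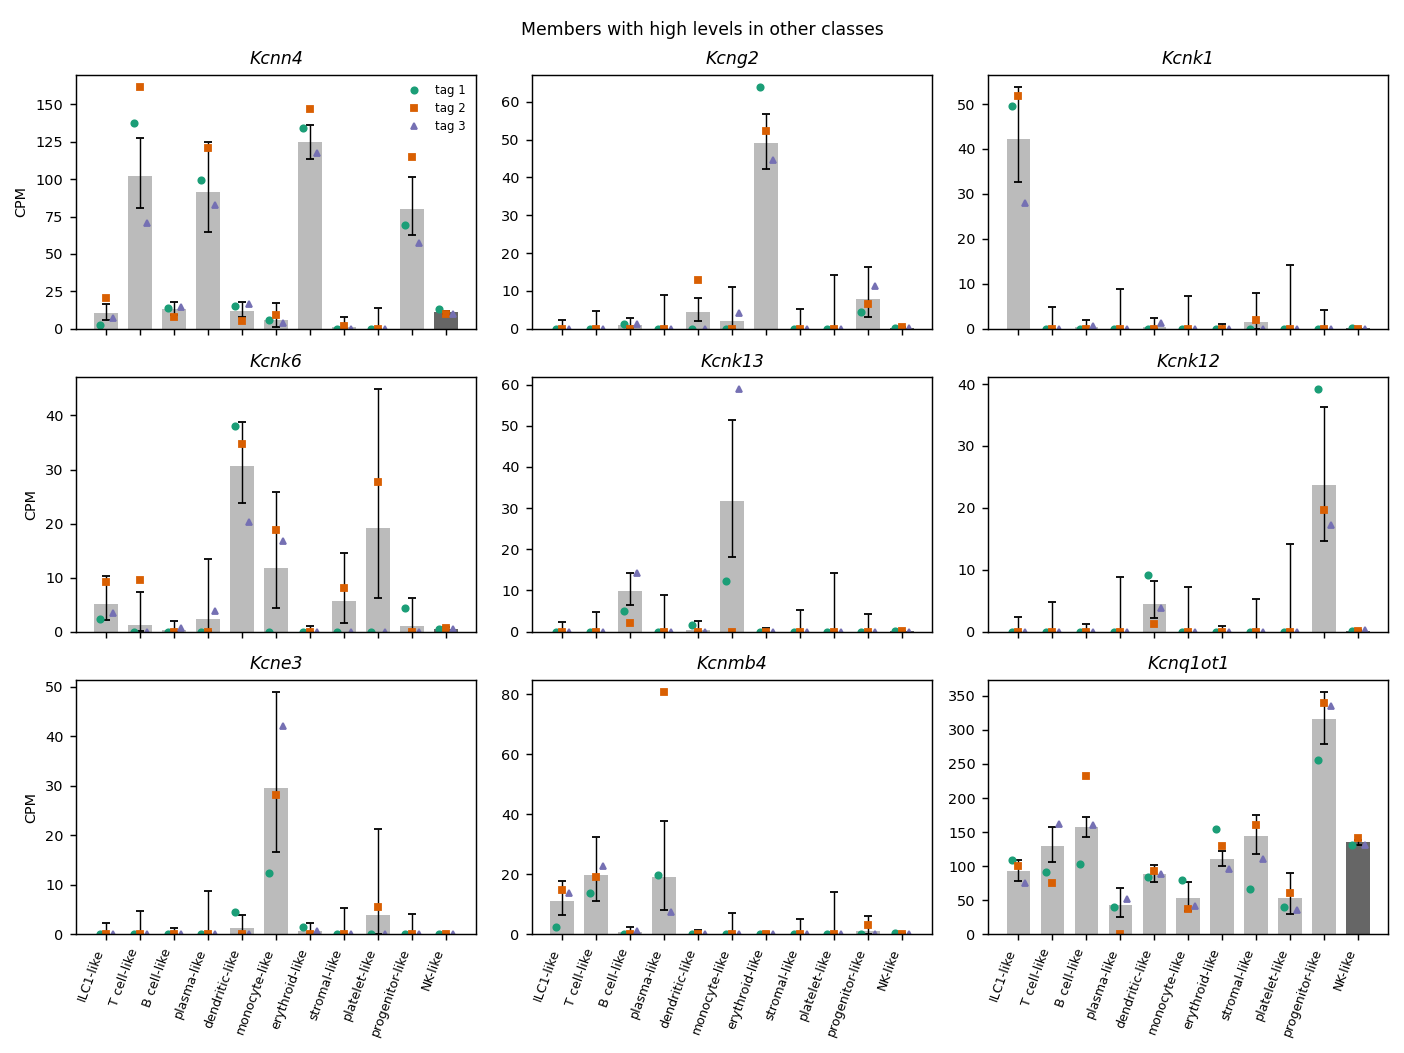
CPM of 9 potassium channel genes by class, with NK-like cells at the right in dark grey; bars show the class sum, error bars its exact Poisson 95% interval, and points the 3 tags. Kcnn4 is tall in 4 classes, Kcnk1 and Kcng2 in 1 each, and the wide intervals of plasma-like and platelet-like cells go with totals of 416776 and 260426 UMIs.

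Kcnn4, which encodes the calcium-activated channel KCa3.1, was high in 4 classes and low in NK-like cells. It had 134, 147 and 117 CPM in erythroid-like cells, 137, 162 and 70.7 in T cell-like cells and 69.6, 115 and 57.2 in progenitor-like cells, against 12.9, 10.1 and 9.99 CPM in NK-like cells. No tag of those classes overlapped the NK-like tags. The log2 folds were 3.99 ± 0.20 in erythroid-like (adjusted p = 2.2e-17), 3.52 ± 0.30 in T cell-like (adjusted p = 6.2e-11) and 2.90 ± 0.30 in progenitor-like cells (adjusted p = 1.5e-09). Plasma-like cells, with 23 cells too few to test, held 38 UMIs in 13 of them (91.2 CPM, 64.5 to 125). B cell-like (13.2 CPM, 9.41 to 18.1), dendritic-like (12.1 CPM, 8.0 to 17.7) and ILC1-like cells (10.4 CPM, 5.95 to 16.9) gave intervals that include the 10.96 CPM of NK-like cells. The B cell-like difference did not pass (log2 fold 0.50 ± 0.33; adjusted p = 0.26). Thinned, 25.2% of T cell-like and 2.41% of NK-like cells had a Kcnn4 UMI, against 39.2% and 4.26% unthinned.

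The Kcnn4 promoter window (RefSeq, GRCm38.p6, chr7:24370013-24370312, plus strand) is shown because the gene was high in 3 tested classes of different lineages. The capitals mark 4 matches to the RUNX core TGTGGT on either strand, which 16.8% of all windows hold. The window has 0 matches to the GATA core AGATAA and 1 to the T-box core, which is not in capitals.
Kcnn4: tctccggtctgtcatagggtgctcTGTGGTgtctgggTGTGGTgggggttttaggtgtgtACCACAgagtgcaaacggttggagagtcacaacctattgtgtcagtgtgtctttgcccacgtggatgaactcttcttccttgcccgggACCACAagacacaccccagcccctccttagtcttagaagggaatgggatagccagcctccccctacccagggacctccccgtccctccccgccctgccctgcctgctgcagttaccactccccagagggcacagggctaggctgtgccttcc
Over all members with a window, 11.2% of 98 windows hold a RUNX match, 15.3% a T-box match, 29.6% a PU.1 match and 4.08% a GATA match, where 11.2% of all windows hold the last.

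Kcnn1, which encodes the small-conductance channel SK1, had 13 UMIs in 9 dendritic-like cells, at 3.04, 8.99 and 5.08 CPM in the 3 tags, against 2 UMIs in NK-like cells (ratio 126, counting interval 28.5 to 1148). Kcnma1, which encodes the BK channel pore, had under 3 UMIs in each other class, against 0.464 CPM (0.284 to 0.717) in NK-like cells, and did not pass between NK-like cells and the other classes together (log2 fold 1.5 ± 1.04, adjusted p = 0.25 under the filter at 3 counts). Kcnmb4, which encodes a neuronal BK auxiliary subunit, was counted in lymphoid classes: it had 13.7, 19.0 and 22.8 CPM in T cell-like cells and 2.36, 14.8 and 13.9 CPM in ILC1-like cells, against 0.370, 0.175 and 0.322 CPM in NK-like cells. Ratios to NK-like cells were 70.6 in T cell-like (counting interval 30.9 to 165) and 39.7 in ILC1-like cells (17.9 to 91.0). Plasma-like cells had 8 UMIs of Kcnmb4 (19.2 CPM, 8.29 to 37.8) and 9 UMIs of the neighbouring transcript Kcnmb4os2 (21.6 CPM). Kcnmb4 overlaps 2 genes on the other strand, and the sources used here do not give the strand setting of the counting. Kcnmb1, another BK subunit gene, also had under 3 UMIs in each other class, against 0.279 CPM (0.144 to 0.487) in NK-like cells, and did not pass either (log2 fold 0.40 ± 1.06, adjusted p = 0.77).

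Of the auxiliary subunit genes, Kcnip3 and Kcnab2 were lower in each of the 7 tested classes than in NK-like cells. Kcnip3 encodes a calcium-binding partner of Kv4 channels that is also known as the transcriptional repressor DREAM. It stood at 47.1, 37.2 and 35.5 CPM in dendritic-like cells and 40.2, 38.8 and 31.4 CPM in ILC1-like cells, against 84.1, 91.2 and 96.3 CPM in NK-like cells (log2 folds -0.83 ± 0.19 and -1.33 ± 0.21; adjusted p = 0.00038 and 9.8e-06). The remaining tested classes were lower still: 9.88 CPM in monocyte-like, 6.79 in progenitor-like, 6.56 in T cell-like, 2.04 in B cell-like and 0.528 in erythroid-like cells, where 2 UMIs were counted (171-fold lower than in NK-like cells, counting interval 47.4 to 1414). Platelet-like cells held 34.6 CPM (15.8 to 65.6) and plasma-like cells 0 UMIs, at least 12.6-fold lower than NK-like cells.

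Kcnab2, which encodes the Kv beta-2 subunit, was more evenly spread. It had 63.8, 24.0 and 43.6 CPM in ILC1-like, 30.9, 18.8 and 46.2 in monocyte-like, 22.9, 19.0 and 38.8 in T cell-like, 10.2, 22.6 and 19.1 in B cell-like and 3.04, 6.42 and 7.61 in dendritic-like cells, against 75.8, 91.8 and 79.8 CPM in NK-like cells. No tag reached the NK-like range. Its log2 folds ran from -0.98 ± 0.23 in ILC1-like (adjusted p = 0.0019) to -3.46 ± 0.33 in dendritic-like cells (adjusted p = 1.3e-10). Leaving out tag 2 ended the calls in ILC1-like (adjusted p = 0.17), monocyte-like (adjusted p = 0.13) and T cell-like cells (adjusted p = 0.052). The monocyte-like call was also lost without tag 1 (adjusted p = 0.054) and with DESeq2 (adjusted p = 0.085). Over the alternatives the adjusted p ranged from 5.8e-05 to 0.17 in ILC1-like, 0.0072 to 0.13 in monocyte-like and 0.00047 to 0.052 in T cell-like cells. Stromal-like cells held 0 UMIs of Kcnab2, at least 19.5-fold lower than NK-like cells.

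Kcne3, a small subunit that opens Kcnq1 channels in epithelia, had 12.4, 28.2 and 42.0 CPM in monocyte-like cells, against 0, 0.0584 and 0.0806 CPM in NK-like cells. All 3 monocyte-like tags lay above NK-like cells, on 15 UMIs in 8 cells, and the ratio was 639 (counting interval 148 to 5754). Kcnip1, a further Kv4 partner, stood at 13 CPM (7.94 to 20.1) in ILC1-like and 1.36 CPM (0.370 to 3.48) in B cell-like cells, against 9.24 CPM (8.36 to 10.2) in NK-like cells. The levels of Kcnip2, Kcnip4, Kcnab3 and Kcnrg rest on at most 10 UMIs in each other class. Kcnip2 had 5.25 CPM (1.43 to 13.4) in T cell-like cells, against 1.28 CPM (0.962 to 1.66) in NK-like cells. Kcnrg had 5.71 CPM (1.55 to 14.6) in stromal-like cells, against 3.23 CPM (2.71 to 3.81) in NK-like cells. The Kcnip4 interval in dendritic-like cells (0.490 to 4.60) covers its NK-like level of 2.25 CPM. Kcnip4 spans 1135 kb with 24 other genes on its strand.

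Kcnq1ot1, the imprinted long non-coding RNA that runs antisense through Kcnq1 and silences its neighbours, was the 1 member above 40 CPM in each of the 11 classes. It was highest in progenitor-like cells, at 257, 339 and 335 CPM, against 131, 141 and 131 CPM in NK-like cells (log2 fold 1.23 ± 0.20; adjusted p = 6.5e-06). In monocyte-like cells it was lower, at 80.5, 37.6 and 42.0 CPM (log2 fold -1.14 ± 0.34; adjusted p = 0.0087), a call that was lost without tag 2 (adjusted p = 0.054) or tag 3 (adjusted p = 0.068), in a range from 9.3e-05 to 0.068 over 11 alternatives. Kcnq1 itself had 10 UMIs in NK-like cells. Among NK transcripts, progenitor-like cells held Gzmb at 87.3%, Nkg7 at 13.9%, Ccl5 at 1.59%, Gzma at 0.890% and Prf1 at 0.438% of the NK-like level. Markers of basophils and mast cells summed to 204 CPM in progenitor-like cells, against 1.53 CPM in NK-like cells; the part of these cells in the progenitor-like values was not tested.

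Stromal-like cells held a set of members that the blood cell classes carried little of. Only 4 of these cells were in tag 1, so they were not tested. Kcnd2 and Kcnd3 encode the pores Kv4.2 and Kv4.3 of the fast, inactivating A-type current. Kcnd2 stood at 66.1, 104 and 139 CPM and Kcnd3 at 33.0, 44.8 and 72.4 CPM in stromal-like cells, against 0.444, 1.28 and 0.242 CPM and 0, 0.409 and 0 CPM in NK-like cells. Kcnab1, the Kv beta-1 subunit, had 330.4, 179 and 145 CPM, against 3.85, 4.73 and 4.43 CPM in NK-like cells. Kcnt2, a sodium-activated channel, had 66.1, 40.7 and 22.3 CPM, against 0.0739, 0.0584 and 0 CPM in NK-like cells. Each of the 3 tags was above the NK-like range for these 4 genes. Counting intervals of the ratio to NK-like cells were 101 to 243 for Kcnd2, 139 to 841 for Kcnd3, 32.0 to 51.1 for Kcnab1 and 199.9 to 6943 for Kcnt2.

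Of the 89 stromal-like cells, 45 had a Kcnab1 UMI, 29 Kcnd2, 20 Kcnd3 and 14 Kcnt2. Kcnab1 was found in 22 of the 29 cells with Kcnd2, and Kcnd3 in 11 of them. Upk3b, a mesothelial marker, was present in 76 of the 89 cells and in all 29 with Kcnd2, while Pdgfrb was present in 9 cells and 1 of those 29. The class was led by Dcn, Igfbp6 and Slpi. Kcnip1 had 16 UMIs in 6 stromal-like cells, 9 of them in 1 cell, and its level was 22.8 CPM (13.05 to 37.1), or 11.3 CPM without the deepest cells, against 9.24 CPM in NK-like cells. Markers of stromal cells were not kept to this class: they summed to 545 CPM in the ILC1-like cells of 1 tag and 235 CPM in the dendritic-like cells of 1 tag.

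**Figure D4:**
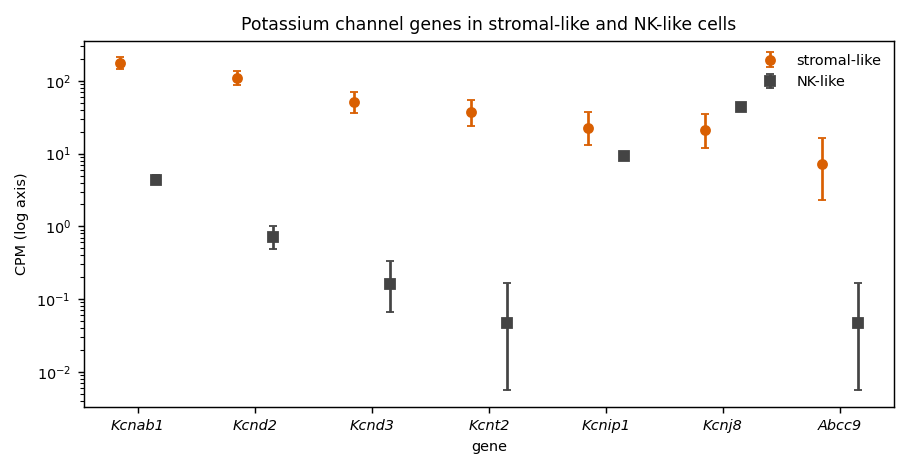
CPM (log axis) of 7 potassium channel genes in stromal-like cells (circles, left of each pair) and NK-like cells (squares), with exact Poisson 95% intervals. Kcnab1, Kcnd2, Kcnd3 and Kcnt2 stood at 177, 111, 51.4 and 37.1 CPM in stromal-like cells, above their NK-like intervals, and Kcnj8 is the gene that is higher in NK-like cells.

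Set against the sum of the other 10 classes, NK-like cells differed in 24 of the 33 members tested among 14462 genes. Of the 33, 10 were higher, where 28.1% of all genes tested were higher, and 14 were lower, where 32.1% were lower. Without tag 2 the lower ones were 9 of 29 tested. The higher ones were Kcnk10 (log2 fold 3.97 ± 0.34), Kcnj8 (3.74 ± 0.17; adjusted p = 1.2e-06), Kcnk7, Kcnip3, Kcnc1, Kcnq5, Kcnab2, Kcnj13, Kcnip1 and Kcnk5. Kcnk10 entered this fit through NK-like cells, so no p-value is given for it. The Kcnip1 call (1.17 ± 0.33; adjusted p = 0.016) was lost without tag 1 (adjusted p = 0.064) and without tag 3 (adjusted p = 0.067), in a range from 0.00023 to 0.067 over 10 alternatives. Lower in NK-like cells were Kcnk1 (-5.86 ± 0.79), Kcng2 (-5.61 ± 0.42), Kcna2, Kcnt2, Kcnk13, Kcne3, Kcnd3, Kcnk12, Kcnk6, Kcnmb4, Kcnd2, Kcnn4, Kcnh4 and Kcnab1. Apart from Kcnd2, Kcnn4 and Kcnab1, these had at most 22 UMIs in NK-like cells. They entered the fit through the other classes, where they are high, so their calls are read with the levels. No p-value is given here for Kcnk1, Kcng2 or Kcnh4. The Kcnh4 call was near the threshold and was lost with DESeq2, without a filter and with the filter at 3 counts. Kcnab1, of which stromal-like cells hold 124 UMIs and NK-like cells 188, did not pass without tag 2 (adjusted p = 0.091, range 0.00012 to 0.091), the tag that holds 62 of the 89 stromal-like cells. With the filter at 3 counts, 11 of 44 members were higher and 16 lower, where 26.2% of all genes were higher and 30% lower. The median log2 fold of the 33 was -0.13, and that of all genes tested -0.01. The class mixture on the other side follows which cells escaped the selection, with B cell-like cells the most numerous.

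Within NK-like cells, the stage classes by Cd27 and Itgam, markers of early and late mouse NK cells, differed in 4 of 13 members tested. The gate was set on cells thinned to 2500 UMIs, which gave 1050 Cd27-only and 2612 Itgam-only cells. Over all 10573 genes of that fit, 8.19% passed as higher and 6.29% as lower; among the members Kcnc1 and Kcnq1ot1 were higher and Kcnj8 and Kcnab2 lower. Kcnc1 had 11.5, 12.5 and 8.88 CPM in Cd27-only cells, against 2.74, 4.57 and 3.71 CPM in Itgam-only cells, so the tags did not overlap (log2 fold 1.60 ± 0.31; adjusted p = 0.00018). Markers of T cells summed to 283 CPM in Cd27-only cells, against 125 CPM in Itgam-only cells, and Kcnc1 was also counted in T cell-like cells; their part in the Kcnc1 difference was not tested. Kcnj8 went the other way, with 18.2, 18.2 and 23.3 CPM in Cd27-only cells, against 74.8, 62.9 and 66.8 CPM in Itgam-only cells (log2 fold -1.74 ± 0.13; adjusted p = 1e-13).

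Kcnab2 and Kcnq1ot1 differed by small amounts between the stages. Kcnab2 had 56.8, 81.8 and 78.3 CPM in Cd27-only cells, against 88.5, 99.7 and 87.7 CPM in Itgam-only cells (log2 fold -0.31 ± 0.09; adjusted p = 0.015). Kcnq1ot1 had 153, 140.1 and 137 CPM, against 105, 122 and 130.3 CPM (log2 fold 0.31 ± 0.08; adjusted p = 0.0044). Both calls were lost with DESeq2 (adjusted p = 0.51 and 0.25), without the tag block (0.16 and 0.053) and without tag 1 (0.27 and 0.21). Over 8 alternatives the adjusted p ran from 0.00084 to 0.51 for Kcnab2 and from 0.00019 to 0.25 for Kcnq1ot1. Kcnq5 stood at 768, 702 and 747 CPM in Cd27-only cells, against 751, 774 and 830 CPM in Itgam-only cells, and its log2 fold was -0.05 ± 0.04 (adjusted p = 0.53). Kcnip3 (0.08 ± 0.08; adjusted p = 0.62), Kcnn4 (0.22 ± 0.27; adjusted p = 0.68) and Kcnk10 (-0.26 ± 0.23; adjusted p = 0.53) also missed the threshold. With the filter at 3 counts the same numbers, 2 higher and 2 lower, passed among 22 members, where 6.49% of all genes were higher and 5.05% lower. Median depth was 5160 UMIs in Cd27-only cells and 3886.5 in Itgam-only cells.

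**Figure D5:**
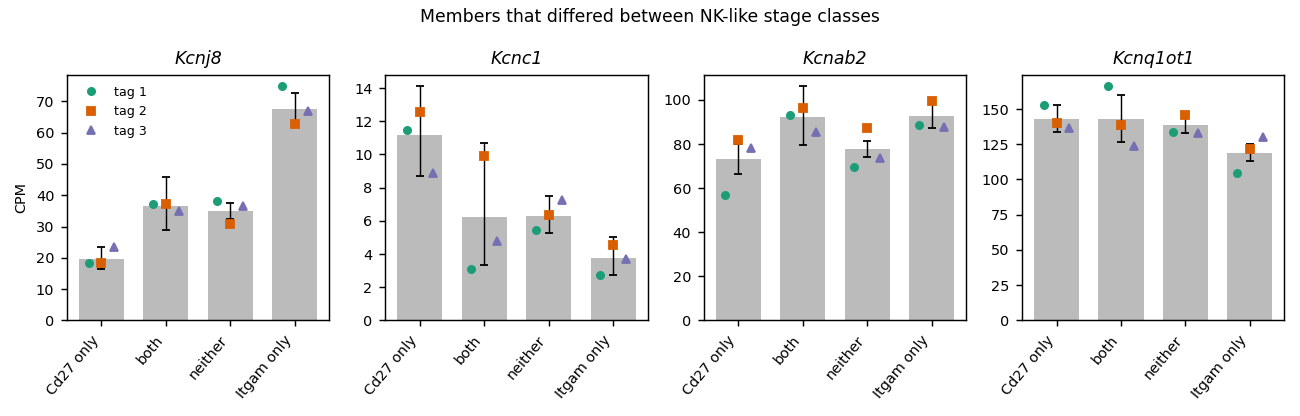
CPM of the 4 members that passed the test between stages, in NK-like cells classed by UMIs of Cd27 and Itgam (Cd27 only, both, neither, Itgam only); bars show the sum, error bars its exact Poisson 95% interval, and points the 3 tags. Kcnj8 is lowest in Cd27-only cells (19.7 CPM) and highest in Itgam-only cells (67.7 CPM), and Kcnc1 runs the other way (11.1 and 3.76 CPM).

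A further 24 pump, cotransporter, HCN and volume-regulated channel genes were read beside the channels, and 15 of them were tested in the class fit. The list includes the Lrrc8 genes of volume-regulated channels and is not limited to genes that move potassium. Erythroid-like cells had 2 higher and 10 lower than NK-like cells, where 34.3% of all genes tested were higher and 39.2% lower, and B cell-like cells 2 and 8, against 18.1% and 20.3%. ILC1-like cells had 2 and 7, against 10.4% and 9.43%, and dendritic-like cells 4 and 6, against 26.1% and 25%. Progenitor-like cells had 3 and 6, against 23.1% and 23.5%, and T cell-like cells 1 and 2, against 8.52% and 10.5%. Monocyte-like cells had 9 higher and 2 lower, against 18.3% and 17.8%. Their median log2 fold was 0.75 over the 15 genes as fitted, against -0.19 for all genes tested. It was 0.92 over the 14 genes left by the rule for genes at 0 UMIs given above. Atp1b1, a beta subunit of the sodium pump, was lower in each of the 7 classes: it stood at 89.8, 53.6 and 108 CPM in ILC1-like and 5.11, 14.4 and 29.8 in B cell-like cells, against 225, 222 and 219 CPM in NK-like cells. Atp1b2, an alternative beta subunit, was high in erythroid-like cells, at 49.96, 59.4 and 65.7 CPM, against 0.444, 0.350 and 0.403 CPM in NK-like cells (log2 fold 7.40). Atp1b2 entered the fit through erythroid-like cells, so no p-value is given for them. Slc12a2, the sodium, potassium and chloride cotransporter, had 155, 113 and 113 CPM in monocyte-like cells, against 8.28, 8.35 and 11.2 CPM in NK-like cells (log2 fold 3.95; adjusted p = 4e-11). Slc12a7, a potassium and chloride cotransporter, stood at 82.4, 28.6 and 50.2 CPM in T cell-like and 2.56, 0 and 0.596 CPM in B cell-like cells, against 35.9, 37.0 and 39.2 CPM in NK-like cells. Between the stages, Cd27-only cells had 0 of 14 tested genes higher and 4 lower (Atp1b1, Atp1b3, Fxyd5 and Slc12a7), where 8.19% of all genes tested were higher and 6.29% lower.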

How the data were processed

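One droplet-based 3′ library (10x Genomics v3.1, per the labels' protocols) was analysed. The authors deposited raw UMI counts per gene and barcode; the file headers name Cell Ranger 7.0.0; the submitters' processing notes also name Seurat and mm10. The sources used here give neither the annotation nor how introns were treated. Kept were 15742 of 16384 barcodes, those with 500 to 6000 genes and no more than 10% of UMIs from mitochondria, and those above exactly 1 of 3 tag thresholds (Otsu's method, scikit-image 0.26.0; 133, 187 and 130 counts) were analysed; 3567 carried several tags and 479 none. No doublet caller was run.

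A class needed 4 markers of its list and a lead of 2 over other lists, where only the NK-like class counted all lists and the others left out the NK list. Classes other than NK-like and ILC1-like could hold at most 4 of 9 NK markers. For ILC1-like cells the only limit on NK markers was 0 UMIs of Eomes and Itga2. The gates were set after the data were seen. The gates left 963 cells unclassed (8.23%). Each class gave 1 sum of UMIs in every tag, and edgeR 4.0.16 compared the sums (R 4.3.3; quasi-likelihood test, TMM, a block for the tag, the default expression filter, Benjamini-Hochberg adjustment over all genes, threshold 0.05). Classes needed 10 cells in each tag. In simulated counts for B cell-like against NK-like cells (7848 genes tested), 91% of 2-fold and 100% of 4-fold changes were recovered, with 4 false calls. The changed genes were drawn only from genes well expressed in NK-like cells, with 1 fixed spread and changes in B cell-like cells alone. These figures do not carry over to members with few NK-like UMIs or to smaller classes. The tags pair the sums because a tag marks 1 pool of cells.

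Members and lists were chosen with earlier results of these data known. Members with at least 10 UMIs in a class or a passed test are named, together with the KATP genes; some genes are not reported here. Alternatives were DESeq2 1.42.0, no filter, a filter at 3 counts, no tag block, a fit per class, a stricter gate, all barcodes, unthinned stage classes, each tag left out and the deepest 5% of cells left out. Coordinates and overlaps are from GENCODE vM21 on GRCm38, and promoter windows from RefSeq, which has one for 73 of the 101 genes.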

Additional observations from a re-analysis of the deposited data

How the results depend on the processing

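Over the 7 class comparisons the members passed 11 tests as higher and 28 as lower than in NK-like cells. These counts rose to 32 and 50 without a filter on low counts, to 24 and 49 with the filter at 3 counts and to 23 and 53 with a fit of its own for each class. The members took 588, 147 and 158 tests in these settings, against 63. Leaving out each tag in turn gave 11 to 18 higher, with 18 without tag 1, and 25 to 29 lower. The members tested in each class also changed, to 13 without tag 1, 11 without tag 2 and 10 without tag 3, against 9. Shares of all genes were taken only for the main fit and the filter at 3 counts, so the other counts have none beside them. In the main fit, between 8.52 and 34.3% of all genes tested were higher in a class and between 9.43 and 39.2% lower. With the filter at 3 counts, between 6.56 and 30.7% of all genes tested were higher in a class and between 7.9 and 35% lower. Without the tag block, which is the fit that drops the replicate pairing, the class counts stayed at 11 and 28, while the stage counts fell to 1 higher and 1 lower, against 2 and 2, and NK-like cells against the other classes gave 10 higher and 10 lower among 28 members, against 10 and 14 among 33. DESeq2 also gave 1 and 1 for the stages, and leaving out each tag gave 1 to 2 in each direction, with 1 and 1 without tag 1. For NK-like cells against the other classes, 14 lower members became 9 to 12 when a tag was left out, with 9 without tag 2, and the 10 higher ones 9 to 10. The members tested there were 31, 29 and 27 without tags 1, 2 and 3, against 33. The single tests that passed in the main fit were followed over the alternatives. Of these repeats, 652 kept their direction and side of the threshold, 26 no longer passed and 1 reversed. The reversed one was Kcng2 in dendritic-like cells without tag 2 (-2.08, against 4.55 without tag 1). Tests that passed only in an alternative are not among these repeats. The causes of these changes were not tested. The number of gene and class pairs at 10 CPM or more was 71, and 67 to 71 in 3 alternatives; 289 single levels moved by less than the spread between tags and 20 by more. Depth limits the small classes: with 0 UMIs the upper 95% limit was 8.85 CPM in plasma-like and 14.2 CPM in platelet-like cells, against 0.0857 CPM in NK-like cells.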
